A study of Mus musculus with 20 samples.

Results

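Tumors of mice hemizygous for a MYCN transgene were set against ganglia of wild-type mice, and the comparison is described across all genes that the array names. The samples were taken by their titles: 4 hemizygous tumors and 4 wild-type ganglia, 8 of the 20 arrays in the series. The tumors came from mice with the genotype MYCN Tg hemizygote on a mixed 129+Ter/SvJcl background, the ganglia from wild-type 129+Ter/SvJcl mice, and the colony was kept by crossing to that wild-type strain. Tissue was frozen, and total RNA was labelled by 2 rounds of amplification and hybridised to Affymetrix Mouse Genome 430 2.0 arrays, which read each transcript near its 3' end. The labels do not name the promoter that drives the transgene, the ganglion dissected, the age or sex of the mice, or whether the arrays of a group came from separate animals. The p-values thus rest on the spread among these arrays, which could be technical in part. Genotype, the mixed background and tumor tissue differ together between the groups and cannot be told apart. A further group, 4 tumors of mice homozygous for the transgene on the mixed background, serves below to show where hemizygous tumors differ from the tissue most like them.

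MYCN is a transcription factor of the MYC family that, with its partner MAX, binds DNA and drives genes for growth, ribosome production and cell division. It is active in the embryonic precursors of sympathetic neurons, and extra copies of its gene mark aggressive neuroblastoma, a childhood tumor of the sympathetic nervous system. A normal sympathetic ganglion holds nondividing neurons that make noradrenaline, satellite and Schwann glia around them, fibroblasts, vessels and resident macrophages. All values are from whole pieces of tissue, so fewer cells of a type and less RNA per cell cannot be told apart in any result below.

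Values are the deposited probe set intensities on a linear scale, and each gene is read by 1 probe set. Fold changes are differences of log2(intensity + 16), so they understate the change of dim genes. The label ganglion was checked against markers of sympathetic neurons. Th, the rate-limiting enzyme of catecholamine synthesis, read 2165, 1472, 3193 and 2775 in ganglia 1 to 4, and Dbh, which makes noradrenaline, read 2075, 1249, 2885 and 2621. Prph, an intermediate filament of peripheral neurons, read 3099, 2639.7, 1440.2 and 1757, and Chrna3, a subunit of the ganglionic acetylcholine receptor, read 771, 601, 759 and 581. These 4 markers were present in all 4 ganglia.

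Some arrays stood apart before any comparison. Across the tested genes, ganglia 1 and 2 correlated with each other at 0.97 and so did 3 and 4, but values across these pairs lay between 0.880 and 0.911, against 0.959 to 0.985 within the tumors and 0.734 to 0.816 between tumors and ganglia. Sex-linked genes and markers of other tissues differed between the pairs. Xist, transcribed from the inactive X chromosome, read 2411, 2481, 44.001 and 30.7 in ganglia 1 to 4, and the Y-linked Eif2s3y read 0.152, 4.30, 519 and 775, so ganglia 1 and 2 were opposite to 3 and 4 in both. Acta1, an actin found in skeletal muscle, read 13.3, 20.3, 2389.8 and 44.1 in tumors 1 to 4 and 1042, 529, 16.02 and 7.10 in ganglia 1 to 4. Alb, the plasma albumin made in liver, was high in ganglia 1 and 2, at 1588, 393, 25.4 and 12.3 in ganglia 1 to 4. Acta1 was thus high in ganglia 1 and 2 and in tumor 3. The beta-actin control probe sets gave a ratio of 3' to 5' signal, a measure of RNA integrity and of amplification, that was 2.20 ± 0.34 (SD, n = 4) in the hemizygous tumors and 6.88 ± 1.96 (SD, n = 4) in the ganglia without overlap, and its part in the results between these groups was not tested. It was 2.55 ± 0.17 (SD, n = 4) in homozygous tumors. The same ratio for Gapdh overlapped, at 2.94 ± 0.19 (SD, n = 4) in hemizygous tumors and 3.42 ± 0.68 (SD, n = 4) in ganglia. Every gene named below that passed kept its direction with either pair of ganglia alone, and calls lost that way or without 1 array are given beside the gene.

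Of 15132 genes tested with limma, 7958 changed at an adjusted p under 0.05, which is 52.6% of all genes. Of these, 4086 were higher in the tumors (27%) and 3872 were lower (25.6%). The 4 and 4 values did not overlap for 6402 genes (42.3%). Among the genes that changed, 2383 were more than 2-fold higher and 2091 more than 2-fold lower, and 154 and 188 passed 8-fold. The counts per gene list below are to be read against these percentages. Over all tested genes the median log2 fold change was -0.05.

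The largest rises were in transcription factors of neuroendocrine precursors, in 2 cell surface proteins and in mitosis genes. Insm1, a zinc finger factor of neuroendocrine and sympathoadrenal precursors, read 862, 969.7, 1037 and 1211 in tumors 1 to 4 and 4.28, 5.26, 9.73 and 0.889 in ganglia 1 to 4 (log2 fold change 5.63, SE 0.20, adjusted p = 3.52e-12). St18, a zinc finger protein of the Myt1 family, read 863, 1086, 1338 and 1266 in tumors 1 to 4 and 5.83, 12.2, 24.98 and 9.56 in ganglia 1 to 4 (log2 fold change 5.33, SE 0.44, adjusted p = 1.39e-08). Both genes were close to the floor of the array in every ganglion and bright in every tumor. Dlk1, a transmembrane protein related to Notch ligands and an imprinted gene, read 2038, 1943, 1639.8 and 1804 in tumors 1 to 4 and 56.4, 65.0, 16.2 and 18.4 in ganglia 1 to 4 (log2 fold change 5.21, SE 0.27, adjusted p = 9.72e-11). Agtr2, the type 2 angiotensin receptor, which is known mainly from fetal tissue, read 2345, 2795, 2366 and 2697 in tumors 1 to 4 and 71.6, 121, 36.4 and 44.4 in ganglia 1 to 4 (log2 fold change 5.03, SE 0.24, adjusted p = 3.31e-11). For both, the lowest tumor lay far above the highest ganglion. Tox3, an HMG-box chromatin protein, was at 927 ± 155 (SD, n = 4) in tumors and 17.3 ± 6.68 in ganglia. Bcl11a, a zinc finger repressor known from the silencing of fetal globin, was at 679 ± 155 (SD, n = 4) and 11.4 ± 3.96. Cbln2, a secreted organizer of synapses, was at 623 ± 237 (SD, n = 4) and 12.2 ± 1.96. The 8 genes that complete the highest 15 are division genes: Bub1b, Ncapd2, Nek2, Bub1, Cdc20, Plk1, Kif2c and Cdt1. The highest and lowest 15 were taken from genes whose groups do not overlap, so their separation was fixed by that choice.

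The largest falls were in products of mature sympathetic neurons and of glia. Fabp7, a fatty acid binding protein of satellite glia and radial glia, read 60.9, 24.5, 3.51 and 14.1 in tumors 1 to 4 and 4070.2, 4714, 5102 and 5031 in ganglia 1 to 4 (log2 fold change -7.01, SE 0.31, adjusted p = 2.20e-11). Slc6a2, the transporter that takes noradrenaline back into the neuron, read 84.6, 435, 15.4 and 8.56 in tumors 1 to 4 and 4146, 4179, 9832 and 7779 in ganglia 1 to 4 (log2 fold change -6.30, SE 0.62, adjusted p = 1.33e-07). Tumor 2 kept the most Slc6a2, though still under every ganglion. Prph read 8.88, 66.0, 1.78 and 3.74 in tumors 1 to 4 (log2 fold change -6.21, SE 0.50, adjusted p = 9.86e-09), so a filament bright in every ganglion was at or near the floor in 3 tumors. Npy, the peptide released with noradrenaline, read 13.8, 43.5, 20.3 and 192 in tumors 1 to 4 and 3908, 3644, 4214 and 3059 in ganglia 1 to 4 (log2 fold change -5.93, SE 0.44, adjusted p = 4.47e-09). Its highest tumor was tumor 4. Sncg, a synuclein of peripheral neurons, read 21.6, 50.4, 3.08 and 11.5 in tumors 1 to 4 and 2547, 2454, 2192 and 1529.8 in ganglia 1 to 4 (log2 fold change -5.99, SE 0.33, adjusted p = 1.30e-10). Chl1, an adhesion protein of the L1 family, read 132, 115, 8.25 and 16.7 in tumors 1 to 4 and 2306, 2042, 3111 and 2584 in ganglia 1 to 4, and the 2 tumors with the more Chl1 were 1 and 2. Abca8a, a lipid transporter, followed the same order of tumors, with 241, 161, 17.8 and 52.0 in tumors 1 to 4 and 2676, 2205, 3199.5 and 3536 in ganglia 1 to 4. The other members of the lowest 15 were Prr15, Tspan8, a tetraspanin, Itm2a, a membrane protein, Grm7, a metabotropic glutamate receptor, Hpcal4, a neuronal calcium sensor, Rit2, a small GTPase of neurons, Tm4sf4, and Lpar1, a receptor for lysophosphatidic acid.

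**Figure D1:**
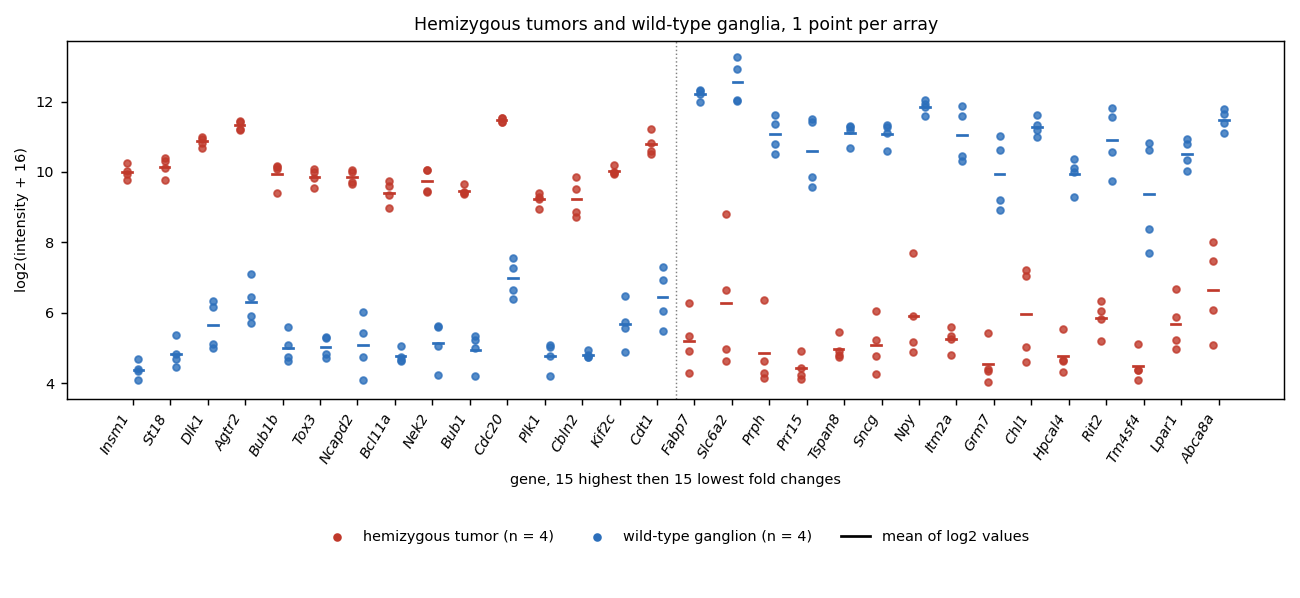
Intensity on the log2(intensity + 16) scale (y axis) for the 15 genes with the largest rise and the 15 with the largest fall among genes chosen for no overlap between the groups (x axis), 1 point per array, red for 4 hemizygous tumors, blue for 4 wild-type ganglia, with a bar at the mean of the log2 values. The tumors spread widely for Slc6a2 and Chl1 and lie close together for Insm1 and Dlk1.

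The MYC genes themselves were examined next, as background to the transgene. The mouse Mycn probe set with the highest mean read 15.7, 19.1, 43.9 and 77.7 in tumors 1 to 4 and 323, 236, 304 and 413 in ganglia 1 to 4 (log2 fold change -2.72, SE 0.28, adjusted p = 2.15e-07), lower in every tumor. A second, dimmer probe set, whose name says it may match several transcripts, went the other way, at 55.2 ± 21.3 (SD, n = 4) in tumors and 8.92 ± 5.07 in ganglia (log2 1.49). Which of these reads the transgene was not analysed here, so neither is given as the level of MYCN. Myc, the paralogue used by most dividing tissues, read 11.9, 6.40, 8.81 and 22.3 in tumors 1 to 4 and 38.1, 55.0, 42.7 and 15.7 in ganglia 1 to 4 (log2 fold change -0.90, SE 0.32, adjusted p = 0.0249), and its groups overlapped. The call for Myc was lost without tumor 2, tumor 3, ganglion 2 or ganglion 3 (adjusted p = 0.0701, 0.0583, 0.0714 and 0.0569) and with ganglia 3 and 4 alone (adjusted p = 0.167). Of the 13 genes of the MYC, MAX and MXD network, 7 were higher and 3 lower. Mlxip, a glucose-responsive factor of the network, read 149, 149.8, 218 and 177 in tumors 1 to 4 and 46.8, 61.1, 14.6 and 31.1 in ganglia 1 to 4 (log2 fold change 1.87, SE 0.23, adjusted p = 1.89e-06). Mxi1 and Mxd3, which compete with MYC for MAX, were higher by log2 1.30 and 1.27, and Max itself by 0.51 (adjusted p = 0.0398). Max no longer passed without tumor 3, tumor 4, ganglion 2 or ganglion 4 (adjusted p = 0.136, 0.109, 0.0691 and 0.147), nor with either pair of ganglia alone. Mxd4 was lower, at log2 -0.96, a value set by ganglia 1 and 2, with 124, 89.5, 88.7 and 151 in tumors 1 to 4 and 375, 439.8, 120.0 and 135 in ganglia 1 to 4. Without ganglion 1 or 2 Mxd4 did not pass (adjusted p = 0.066 and 0.0679), and the number of network genes that were lower was then 3 and 1. With ganglia 3 and 4 alone Mxd4 was at log2 -0.18, adjusted p = 0.523, and its probe sets specific to 1 transcript gave log2 0.14, adjusted p = 0.615.

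Transcription factors of the sympathoadrenal lineage split into both directions: 13 of 25 tested were higher and 6 lower, with a median log2 fold change of 0.78. Among the higher were Sox11, a SOX factor of immature neurons, at 1358, 1496, 1313 and 1256 in tumors 1 to 4 and 206, 136, 161 and 152 in ganglia 1 to 4 (log2 fold change 2.94, SE 0.16, adjusted p = 1.14e-10), and Dach1, a factor of progenitor cells, at 164, 324, 399 and 477 in tumors 1 to 4 and 8.86, 11.4, 8.16 and 16.3 in ganglia 1 to 4 (log2 fold change 3.63, SE 0.29, adjusted p = 9.54e-09). Meis2, a homeobox partner of HOX and PBX proteins, read 278, 211, 549 and 266 in tumors 1 to 4 and 39.7, 53.5, 43.999 and 28.7 in ganglia 1 to 4 (log2 fold change 2.50, SE 0.34, adjusted p = 5.35e-06). All 3 were separate between the groups. Gata3, which is needed for sympathetic neurons and their enzymes, was higher by log2 1.09 (adjusted p = 0.00419), although tumor 2, at 81.1, lay below ganglion 3, at 84.6. Core factors of sympathetic identity did not pass. Isl1 read 1659, 1879.8, 2639 and 2041 in tumors 1 to 4 and 1879, 1780.1, 2239 and 2973 in ganglia 1 to 4 (log2 -0.10, adjusted p = 0.71), Phox2a was at log2 -0.12 (adjusted p = 0.802) and Gata2 at log2 -0.05 (adjusted p = 0.919). As a mean over its probe sets Isl1 was higher (log2 0.48, adjusted p = 0.0462). Phox2a differed by pair of ganglia, with log2 -0.90, adjusted p = 0.0362 against ganglia 1 and 2 and log2 0.66, adjusted p = 0.0955 against ganglia 3 and 4. Hand2, a basic helix-loop-helix factor of the noradrenergic fate, fell from 2013 ± 558 (SD, n = 4) to 1229.9 ± 57.9 (SD, n = 4), log2 -0.66 (adjusted p = 0.00471), which did not pass with ganglia 1 and 2 alone, after quantile normalization or as a mean over probe sets, and its relative Hand1 fell by more, from 87.7 ± 33.004 to 16.3 ± 6.27 (log2 -1.64). Hmx1, a homeobox factor of sympathetic neurons with a noradrenergic fate, read 1.25, 0.450, 0.619 and 0.743 in tumors 1 to 4 and 92.7, 50.8, 66.3 and 39.9 in ganglia 1 to 4 (log2 fold change -2.18, SE 0.20, adjusted p = 4.90e-08). Tbx20, a T-box factor, had the largest fall in the list at log2 -3.48, but this rests on ganglia 3 and 4: it read 319, 169.9, 5051 and 4509 in ganglia 1 to 4 and 27.4, 301, 60.7 and 72.3 in tumors 1 to 4.

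The enzymes and transporters that make, store and clear catecholamines fell together. Of 14 tested, 12 were lower and 1 was higher, with a median log2 fold change of -2.13. Th read 171, 213, 717 and 1770.5 in tumors 1 to 4 (log2 fold change -2.25, SE 0.48, adjusted p = 6.50e-04), so that tumor 4 overlapped the ganglia while tumors 1 and 2 were far below them. Dbh read 103, 206, 89.8 and 238 in the tumors (log2 fold change -3.70, SE 0.31, adjusted p = 2.01e-08). Gch1, which makes the cofactor that Th needs, read 121, 231, 129.7 and 363 in tumors 1 to 4 and 1268, 959, 1658 and 1325 in ganglia 1 to 4 (log2 fold change -2.64, SE 0.30, adjusted p = 7.53e-07). Within the tumors, tumor 4 had the most of Th, Dbh and Gch1. The Gch1 probe sets specific to 1 transcript gave log2 -0.18, adjusted p = 0.758. Ddc, the decarboxylase between Th and Dbh, was reduced far less, from 6446 ± 2496 (SD, n = 4) to 3135 ± 314 (SD, n = 4) (log2 -0.96, adjusted p = 6.92e-04), did not pass after quantile normalization, and had a dimmer probe set that went up by log2 1.13. Storage and clearance fell more steeply. The vesicular transporter Slc18a2 read 153, 313, 114 and 106 in tumors 1 to 4 and 1368, 993, 5212 and 3429.9 in ganglia 1 to 4 (log2 fold change -3.70, SE 0.41, adjusted p = 5.83e-07). Maoa, the mitochondrial oxidase of noradrenaline, read 290.2, 334, 268 and 178 in tumors 1 to 4 and 2886, 2882, 4791 and 4139 in ganglia 1 to 4 (log2 fold change -3.70, SE 0.22, adjusted p = 3.46e-10). Maob read 52.0, 95.6, 63.1 and 85.8 in tumors 1 to 4 and 940.2, 904, 2264 and 2603 in ganglia 1 to 4 (log2 fold change -4.10, SE 0.35, adjusted p = 2.30e-08). The only member that was higher was Adra2c, an alpha-2 adrenergic receptor, at 57.9 ± 7.90 against 24.9 ± 4.76 (log2 0.86, adjusted p = 9.87e-04), which did not pass as a mean over its probe sets. Pnmt, which makes adrenaline and marks chromaffin cells, did not pass (log2 0.35, adjusted p = 0.214).

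Among 20 neuropeptides, granins and their processing enzymes, 12 were lower and 2 higher, and the 2 exceptions were both chromogranins, the core proteins of secretory granules. Chga read 333, 366, 407 and 908 in tumors 1 to 4 and 129, 97.8, 109.6 and 140.4 in ganglia 1 to 4 (log2 fold change 1.83, SE 0.30, adjusted p = 5.19e-05). Chgb read 3008, 3380.5, 2742 and 3097 in tumors 1 to 4 and 1363, 1045, 1369.7 and 1317 in ganglia 1 to 4 (log2 fold change 1.26, SE 0.33, adjusted p = 0.00357). Both were separate between groups, with tumor 4 highest for Chga. The related granin Scg2 went the opposite way, at 12.1, 39.2, 16.4 and 43.3 in tumors 1 to 4 and 337, 282, 330.4 and 307 in ganglia 1 to 4 (log2 fold change -2.99, SE 0.27, adjusted p = 4.52e-08). Pcsk1, a protease that cuts peptide precursors, read 4.43, 14.02, 1.24 and 3.20 in tumors 1 to 4 and 177, 163, 366 and 407 in ganglia 1 to 4 (log2 fold change -3.69, SE 0.30, adjusted p = 1.36e-08), and the peptide Gal read 17.2 ± 12.2 (SD, n = 4) in tumors against 281 ± 55.6 in ganglia. These peptide genes were low in all 4 tumors. Vip, a peptide of cholinergic neurons, was lower, at log2 -3.93, but only ganglia 1 and 2 held much of it: it read 2478, 3015, 21.1 and 42.5 in ganglia 1 to 4 and 6.69, 6.07, 9.91 and 7.53 in the tumors. With ganglia 3 and 4 alone Vip did not pass (adjusted p = 0.159).

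Receptors for neurotrophins and the GDNF family, which keep sympathetic neurons alive, were lower for 7 of 12 and higher for none. Ret, the kinase that signals for GDNF ligands, read 38.0, 83.3, 20.996 and 173 in tumors 1 to 4 and 1322, 964, 958 and 827 in ganglia 1 to 4 (log2 fold change -3.70, SE 0.37, adjusted p = 1.87e-07). Ngfr, the low-affinity neurotrophin receptor found on neurons and glia, read 33.6, 56.7, 10.4 and 18.1 in tumors 1 to 4 and 401, 285, 454 and 369 in ganglia 1 to 4 (log2 fold change -3.19, SE 0.31, adjusted p = 1.12e-07). Gfra2, the coreceptor for neurturin, was at 55.6 ± 33.4 (SD, n = 4) against 516 ± 184. The groups did not overlap for these 3, but the Gfra2 probe sets specific to 1 transcript gave log2 -0.07, adjusted p = 0.823. Ntrk3, the receptor for NT-3, did not pass (log2 -0.38, adjusted p = 0.352), though it did against ganglia 1 and 2 alone (log2 -1.12, adjusted p = 0.00216).

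Genes of the mature axon and synapse were lower for the greater part. In the list of neuronal cytoskeleton and axon genes 20 of 32 fell and 7 rose, in the list of synaptic vesicle exocytosis 18 of 29 fell and 3 rose, and among voltage-gated channels 18 of 33 fell and 6 rose. The median log2 fold changes were -1.08, -1.13 and -0.92. Gap43, a growth cone protein, read 376, 303, 557 and 509 in tumors 1 to 4 and 3051, 2741, 1675 and 1804 in ganglia 1 to 4 (log2 fold change -2.36, SE 0.39, adjusted p = 5.16e-05). Stmn2, a tubulin-binding protein of growing axons, read 1000.0, 1056, 1321 and 565 in tumors 1 to 4 and 3335, 3144, 6946 and 6059 in ganglia 1 to 4 (log2 fold change -2.26, SE 0.32, adjusted p = 9.37e-06). Mapt, the microtubule protein tau, read 40.9, 34.5, 61.0 and 37.9 in tumors 1 to 4 and 273, 131, 318 and 276 in ganglia 1 to 4 (log2 fold change -2.11, SE 0.24, adjusted p = 7.47e-07). In contrast Dcx, a microtubule protein of migrating young neurons, rose to 1028, 942, 1132 and 526 in tumors 1 to 4 from 282, 212, 141 and 116 in ganglia 1 to 4 (log2 fold change 2.20, SE 0.27, adjusted p = 1.88e-06). The neurofilament genes divided. Nefl was lower, at log2 -0.84 (adjusted p = 0.0163) and Nefm higher by log2 1.19 (adjusted p = 0.00347), both with overlap between groups. Nefl did not pass without tumor 4, ganglion 3 or ganglion 4 (adjusted p = 0.0649, 0.0682 and 0.0677), nor with ganglia 1 and 2 alone (log2 -0.17, adjusted p = 0.517), and Nefm did not with ganglia 3 and 4 alone (adjusted p = 0.0537). Tubb3, the tubulin of neurons, did not pass (log2 -0.11, adjusted p = 0.778).

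At the synapse, Syn2, a vesicle phosphoprotein, read 103, 162, 83.0 and 144 in tumors 1 to 4 and 1879, 1293, 2993 and 3215 in ganglia 1 to 4 (log2 fold change -4.03, SE 0.27, adjusted p = 1.04e-09). Syt1, the calcium sensor of fast release, read 349, 385, 364 and 547 in tumors 1 to 4 and 2969, 2463, 2856 and 2500.2 in ganglia 1 to 4 (log2 fold change -2.68, SE 0.18, adjusted p = 1.53e-09). Cadps, a priming factor of dense-core vesicles, was at 271 ± 47.0 (SD, n = 4) against 2344 ± 1299. No tumor reached the lowest ganglion for these 3 genes. Syp and Vamp2, a vesicle marker and a SNARE protein, did not pass, with log2 -0.38 and -0.30 (adjusted p = 0.213 and 0.26), but Syp was lower without ganglion 2 (log2 -0.67, adjusted p = 0.0105) and with ganglia 3 and 4 alone (adjusted p = 0.00452). Of the ion channels, Kcnq3, a subunit of the M-current that damps firing of sympathetic neurons, read 1.66, 24.8, 3.71 and 23.5 in tumors 1 to 4 and 901, 374, 934 and 857 in ganglia 1 to 4 (log2 fold change -4.75, SE 0.45, adjusted p = 8.62e-08). Scn3b and Scn9a, sodium channel subunits, fell, at log2 -2.39 and -2.75. The channels that rose were led by calcium channel subunits. Cacnb2 read 33.4, 33.6, 45.6 and 41.7 in tumors 1 to 4 and 1.24, 1.45, 2.78 and 2.60 in ganglia 1 to 4 (log2 fold change 1.59, SE 0.15, adjusted p = 1.02e-07), and Cacna1d, an L-type pore, was at 193 ± 55.5 (SD, n = 4) against 58.7 ± 11.99 (log2 1.46). Nicotinic receptor subunits, through which ganglia are driven, were lower for 5 of 9 and higher for none. Chrnb4 read 13.8, 16.8, 2.80 and 7.63 in tumors 1 to 4 and 638, 427, 400.2 and 412 in ganglia 1 to 4 (log2 fold change -4.22, SE 0.24, adjusted p = 2.09e-10), and Chrna3 stood at 182, 144, 185 and 133 in tumors 1 to 4 (log2 fold change -1.97, SE 0.20, adjusted p = 1.87e-07).

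Genes of DNA replication and mitosis rose almost without exception. Of the 59 genes tested for mitotic kinases, kinetochore and spindle, 58 were higher and none was lower, with a median log2 fold change of 3.20. Of the 47 replication genes, 45 were higher and none was lower, with a median of 2.59. Bub1b, a spindle checkpoint kinase, read 1076, 1109.5, 659.7 and 1135 in tumors 1 to 4 and 8.63, 32.1, 17.7 and 10.8 in ganglia 1 to 4 (log2 fold change 4.94, SE 0.27, adjusted p = 1.26e-10). Cdc20, the activator of the anaphase-promoting complex, read 2735, 2959, 2952 and 2707 in tumors 1 to 4 and 139.9, 171, 85.2 and 68.7 in ganglia 1 to 4 (log2 fold change 4.50, SE 0.21, adjusted p = 3.31e-11). Ncapd2, a condensin subunit, read 825, 785, 1016 and 1048 in tumors 1 to 4 and 26.9, 49.5, 1.03 and 10.9 in ganglia 1 to 4 (log2 fold change 4.78, SE 0.30, adjusted p = 5.73e-10). In all 3 the ganglia were low and even the brightest ganglion was well under the tumors. Cdt1, which loads the replicative helicase, read 1529, 1452, 2359 and 1782 in tumors 1 to 4 and 106, 142, 28.8 and 49.8 in ganglia 1 to 4 (log2 fold change 4.34, SE 0.31, adjusted p = 2.26e-09). Mcm3 and Mcm5, subunits of that helicase, rose by log2 4.14 and 4.07. The helicase loader was highest in tumor 3 and its ganglion values were highest in ganglia 1 and 2. The members that did not pass were Kif14, Gins3 and Fen1, with log2 fold changes of 0.09, 0.37 and 0.06 (adjusted p = 0.579, 0.126 and 0.943). Fen1, a flap nuclease, depended on the ganglia, with log2 -1.57, adjusted p = 3.54e-04 against ganglia 1 and 2 and log2 1.69, adjusted p = 1.23e-04 against ganglia 3 and 4, and as a mean over its probe sets it was higher (log2 1.44, adjusted p = 0.00147). Gins3 passed without ganglion 3 (log2 0.57, adjusted p = 0.0139), against ganglia 1 and 2 alone and as a mean over its probe sets (adjusted p = 0.0112 and 0.0373).

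In the promoters of the mitotic genes, 2 short motifs that are known from G2/M genes were counted over the 250 bases before the first listed start, on both strands, in RefSeq sequences of GRCm38.p6, which held 12117 of the 15132 tested genes. TTTGAA, the core of the cell cycle homology region, was present for 15 of 52 mitotic genes (28.8%) and for 10.8% of all tested genes. CCAAT, the site of the factor NF-Y, was present for 34 of 52 (65.4%) and for 35.8%. These matches describe letters only. The promoters of 4 mitotic genes that rose and hold TTTGAA are shown because they let the spacing be seen. Both motifs, on either strand, are in capitals. The 4 had the largest rise among the genes left after some were set aside by chromosome. Mitotic genes with TTTGAA and a larger rise may thus be missing here. Cdc20 lies on chromosome 4 minus strand, chr4:118437344-118437593, and holds TTTGAA 18 bases before the start with CCAAT at 53 and 8. Ncapd2 lies on the minus strand, chr6:125191587-125191836, with TTTGAA at 123 bases and CCAAT reversed at 177, 148 and 48. Kif2c lies on the minus strand, chr4:117178773-117179022, with the reverse motif at 103 bases and no CCAAT. Ccnb2, cyclin B2, lies on the minus strand, chr9:70421555-70421804, with 3 CCAAT motifs at 87, 54 and 21 bases and TTTGAA further out, at 167.
Cdc20: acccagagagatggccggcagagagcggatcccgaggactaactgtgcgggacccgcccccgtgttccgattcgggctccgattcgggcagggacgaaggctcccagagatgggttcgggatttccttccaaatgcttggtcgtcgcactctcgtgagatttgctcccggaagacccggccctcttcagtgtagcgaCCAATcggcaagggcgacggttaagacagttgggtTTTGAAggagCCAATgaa
Ncapd2: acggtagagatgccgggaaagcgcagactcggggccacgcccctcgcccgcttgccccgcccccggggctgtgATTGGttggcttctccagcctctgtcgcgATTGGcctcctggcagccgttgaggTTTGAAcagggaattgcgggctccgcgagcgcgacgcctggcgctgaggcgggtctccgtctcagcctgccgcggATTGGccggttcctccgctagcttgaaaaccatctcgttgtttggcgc
Kif2c: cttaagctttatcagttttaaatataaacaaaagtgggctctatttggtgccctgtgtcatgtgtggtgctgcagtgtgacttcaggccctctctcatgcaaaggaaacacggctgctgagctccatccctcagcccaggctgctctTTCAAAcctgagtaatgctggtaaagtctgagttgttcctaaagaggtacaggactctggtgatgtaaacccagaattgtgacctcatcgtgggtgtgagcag
Ccnb2: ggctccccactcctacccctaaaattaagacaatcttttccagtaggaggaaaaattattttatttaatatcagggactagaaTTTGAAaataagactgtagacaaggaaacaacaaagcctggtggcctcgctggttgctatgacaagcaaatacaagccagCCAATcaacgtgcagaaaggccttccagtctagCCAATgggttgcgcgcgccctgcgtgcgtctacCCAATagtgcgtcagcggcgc
The 4 genes rose by log2 4.50, 4.78, 4.36 and 3.85. The E-box CACGTG, which MYC and MAX bind, was present for 8.02% of all tested genes, for 8.98% of those that rose, for 7.57% of those that fell and for 2 of 37 ribosome biogenesis genes (5.41%).

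Cyclins, kinases and E2F factors rose for 19 of 32 and fell for 2. E2f8, an atypical E2F repressor of late S phase, read 556, 686, 529.9 and 612 in tumors 1 to 4 and 21.5, 39.5, 27.7 and 9.80 in ganglia 1 to 4 (log2 fold change 3.96, SE 0.24, adjusted p = 3.73e-10). Cdk4, the kinase of the G1 transition, read 1435, 1600.4, 1865 and 1681 in tumors 1 to 4 and 217, 275, 73.1 and 81.6 in ganglia 1 to 4 (log2 fold change 3.41, SE 0.29, adjusted p = 2.26e-08). Ccnd1, its cyclin, was at 1128 ± 147 (SD, n = 4) against 343 ± 73.3. The 2 that fell were the p21 inhibitor Cdkn1a, at 152, 246, 76.8 and 135 in tumors 1 to 4 and 479, 297, 252 and 353 in ganglia 1 to 4 (log2 fold change -1.16, SE 0.32, adjusted p = 0.00475), and the kinase Cdk6 (log2 -1.30). Each of these genes was separate between the groups, although Cdkn1a did not pass as a mean over its probe sets (log2 -0.48). The other 6 inhibitors of these kinases did not pass. Repair genes of replication stress and recombination rose for 26 of 29 and fell for 1. Rad54l, a recombination motor, read 589, 633, 499.9 and 388 in tumors 1 to 4 and 14.7, 22.5, 18.3 and 18.6 in ganglia 1 to 4 (log2 fold change 3.96, SE 0.21, adjusted p = 9.72e-11). Exo1, a resection nuclease, was at 293 ± 91.2 (SD, n = 4) against 17.04 ± 6.08. Nbn, a subunit of the break sensor, was the member that fell, at log2 -0.87 (adjusted p = 0.00133). In the p53 and apoptosis list 7 of 26 rose and 7 fell, shares close to those of all genes. Mdm2, the ligase that degrades p53, read 251, 287, 220.2 and 311 in tumors 1 to 4 and 104, 79.1, 36.4 and 33.7 in ganglia 1 to 4 (log2 fold change 1.93, SE 0.23, adjusted p = 1.73e-06), although its probe sets specific to 1 transcript gave log2 0.10, adjusted p = 0.697, and Bcl2, the survival factor of mature neurons, read 176, 171, 90.2 and 79.8 in tumors 1 to 4 and 482, 345, 712 and 693 in ganglia 1 to 4 (log2 fold change -1.998, SE 0.25, adjusted p = 2.30e-06). Bid, a death-promoting relative of Bcl2, was higher by log2 2.17.

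Ribosome production and biosynthesis also rose. Of 43 factors of ribosome biogenesis 42 were higher and 1 was lower, with a median log2 fold change of 2.03. Fbl, the methyltransferase of ribosomal RNA, read 1255, 1503, 1429 and 1403 in tumors 1 to 4 and 189, 218, 52.2 and 73.5 in ganglia 1 to 4 (log2 fold change 3.43, SE 0.35, adjusted p = 2.05e-07). Ncl, the main nucleolar protein, read 2306, 2689.8, 2371 and 1851 in tumors 1 to 4 and 637, 652, 135 and 67.5 in ganglia 1 to 4 (log2 fold change 3.08, SE 0.49, adjusted p = 3.84e-05). Rrp1b, a nucleolar processing factor, was at 491 ± 78.4 (SD, n = 4) against 36.9 ± 5.47. Ncl differed between the ganglia too, since ganglia 3 and 4 were far under 1 and 2. The exception, Nop10, a small protein of the pseudouridine complex, was lower, at log2 -0.73 (adjusted p = 0.0197) with overlap, and did not pass without tumor 1, tumor 2 or ganglion 2 (adjusted p = 0.0764, 0.0815 and 0.0557), with ganglia 1 and 2 alone (adjusted p = 0.0964) or with probe sets specific to 1 transcript (adjusted p = 0.658). For the ribosomal proteins themselves 11 of 26 passed as higher and 1 as lower, with a median of 0.44, and this count varied: 7 were higher without tumor 3 or 4 or ganglion 3 or 4, 6 with ganglia 1 and 2 alone, 17 with ganglia 3 and 4 alone and 17 after quantile normalization. Rpl12 read 538, 508, 397 and 294 in tumors 1 to 4 and 39.1, 50.8, 28.6 and 51.04 in ganglia 1 to 4 (log2 fold change 2.93, SE 0.22, adjusted p = 5.64e-09), whereas Rps9 (log2 1.39), at 991, 795, 2589.9 and 2484 in tumors 1 to 4 and 995, 952, 359 and 288 in ganglia 1 to 4, was about as low in tumors 1 and 2 as in ganglia 1 and 2 and did not pass against that pair (adjusted p = 0.256).

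Nucleotide, serine and folate-linked synthesis rose for 22 of 28 and fell for 1, and the median log2 fold change was 1.69. Rrm2, the ribonucleotide reductase subunit of S phase, read 2419, 2477, 2734 and 2512 in tumors 1 to 4 and 90.1, 236, 98.3 and 109 in ganglia 1 to 4 (log2 fold change 4.19, SE 0.22, adjusted p = 1.14e-10). Shmt1, a serine hydroxymethyltransferase, read 401, 383, 541 and 461 in tumors 1 to 4 and 7.88, 61.1, 3.81 and 1.37 in ganglia 1 to 4 (log2 fold change 4.02, SE 0.38, adjusted p = 7.54e-08). Cad, the first enzyme of pyrimidine synthesis, read 326, 348, 424 and 490.0 in tumors 1 to 4 and 49.5, 60.04, 3.504 and 6.62 in ganglia 1 to 4 (log2 fold change 3.41, SE 0.35, adjusted p = 2.63e-07). All were low in every ganglion. The member that fell, Prps2, which feeds purine synthesis, read 717, 872, 617 and 577 in tumors 1 to 4 and 1463, 912, 6431 and 5793 in ganglia 1 to 4 (log2 fold change -1.93, SE 0.47, adjusted p = 0.00211), and did not pass with ganglia 1 and 2 alone (adjusted p = 0.068). In the polyamine list 5 of 12 rose and 3 fell, against 27% and 25.6% of all genes. Srm, spermidine synthase, read 1594, 1420.0, 2037 and 1784 in tumors 1 to 4 and 253, 226, 112 and 153 in ganglia 1 to 4 (log2 fold change 3.14, SE 0.33, adjusted p = 2.94e-07). Odc1, the first enzyme of the pathway and a known MYC target, was higher by log2 0.81 (adjusted p = 0.00619), and the tumors, at 1395, 1746, 1529 and 1532, exceeded ganglia 3 and 4 by less than ganglia 1 and 2, which stood at 579.6, 619, 1181 and 1391 in the order 1 to 4. With ganglia 3 and 4 alone it did not pass (adjusted p = 0.191). Translation factors and tRNA synthetases were higher for 19 of 28 and lower for 1. Vars, the valine synthetase, rose by log2 3.56, and Eef2, the elongation factor, by log2 2.46.

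Genes of glycolysis and sterol synthesis were more often lower than higher. Among 19 glycolytic genes 10 were lower and 3 higher. With probe sets specific to 1 transcript, 3 of 11 glycolytic genes were lower, against 3279 of all 13541 genes then tested. Eno2, the neuronal enolase, read 29.0, 31.6, 25.4 and 15.1 in tumors 1 to 4 and 249, 127, 1454 and 1168 in ganglia 1 to 4 (log2 fold change -3.63, SE 0.51, adjusted p = 9.28e-06). Aldoc, the aldolase of brain and nerve, read 17.5, 27.1, 7.95 and 18.7 in tumors 1 to 4 and 743, 407, 311 and 256 in ganglia 1 to 4 (log2 fold change -3.63, SE 0.28, adjusted p = 6.01e-09). Slc2a3, the glucose transporter of neurons, was at 428 ± 78.3 (SD, n = 4) against 1938 ± 176. Eno2 and Slc2a3 are the neuronal forms of their families. The 3 that rose were Pkm, pyruvate kinase of dividing and muscle cells, at 1848, 1767, 2093 and 1705 in tumors 1 to 4 and 914, 833, 360.3 and 283 in ganglia 1 to 4 (log2 fold change 1.77, SE 0.29, adjusted p = 5.50e-05), the phosphofructokinase Pfkl (log2 1.45) and the lactate dehydrogenase Ldha (log2 0.63). Hk2, a hexokinase of many tumors, did not pass (log2 0.38, adjusted p = 0.258) but did without ganglion 2 (adjusted p = 0.0247), when 6 of the list were higher. Pfkl and Ldha did not pass with ganglia 1 and 2 alone (adjusted p = 0.165 and 0.0838). Of 19 sterol synthesis genes 10 were lower and none higher. Fdft1, squalene synthase, read 526, 474, 502 and 514 in tumors 1 to 4 and 3056, 3093, 1999 and 2491 in ganglia 1 to 4 (log2 fold change -2.34, SE 0.17, adjusted p = 2.15e-09), and the tumors lay within a narrow band. Msmo1 and Cyp51, later steps of the pathway, fell, at log2 -2.10 and -1.65, but the Msmo1 probe sets specific to 1 transcript gave log2 -0.01.

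Polycomb subunits rose for 15 of 26 and fell for 3, and DNA methylation and chromatin factors rose for 18 of 26 and fell for none. Ezh2, the methyltransferase of Polycomb complex 2 in dividing cells, read 1235, 1350.4, 1547 and 1338 in tumors 1 to 4 and 124, 127, 127 and 162 in ganglia 1 to 4 (log2 fold change 3.20, SE 0.15, adjusted p = 3.31e-11). Its relative of resting cells, Ezh1, read 75.8, 82.5, 39.7 and 61.4 in tumors 1 to 4 and 256, 199.9, 224 and 219.8 in ganglia 1 to 4 (log2 fold change -1.60, SE 0.18, adjusted p = 5.78e-07). The 2 enzymes of this complex thus moved in opposite directions, each without overlap. The Ezh1 probe sets specific to 1 transcript did not differ by the test (adjusted p = 0.991). Without tumor 4, ganglion 3 or ganglion 4 the number of Polycomb genes that were lower was 1. Phc1 and Bmi1, of complex 1, rose by log2 2.92 and 1.85. Uhrf1, which brings the maintenance methylase to replicated DNA, read 583, 549, 808 and 499.8 in tumors 1 to 4 and 27.2, 55.7, 10.9 and 26.3 in ganglia 1 to 4 (log2 fold change 3.83, SE 0.26, adjusted p = 1.37e-09), and the methylase Dnmt1 read 794, 716, 1074 and 1142 in tumors 1 to 4 and 151, 175, 165 and 156 in ganglia 1 to 4 (log2 fold change 2.39, SE 0.17, adjusted p = 1.99e-09). The de novo methylase Dnmt3a did not pass (log2 0.28, adjusted p = 0.112), but did as a mean over its probe sets (log2 0.37, adjusted p = 0.0237) and with a pseudocount of 64 (adjusted p = 0.0451).

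Of 20 oncofetal and imprinted growth genes 6 were higher and 5 lower, close to the shares of all genes (27% and 25.6%). Beside Dlk1, Magel2, an imprinted gene of neurons, read 539.7, 410.3, 562 and 367 in tumors 1 to 4 and 44.96, 145, 29.4 and 39.9 in ganglia 1 to 4 (log2 fold change 2.76, SE 0.30, adjusted p = 3.90e-07). Sgce, epsilon-sarcoglycan, also imprinted, was at 1034 ± 171 (SD, n = 4) against 393 ± 63.4 (log2 1.36). Igf2, the fetal growth factor, was lower, at log2 -2.34 with overlap, at 399, 586, 52.0 and 114 in ganglia 1 to 4 and 16.1, 67.6, 5.16 and 42.7 in tumors 1 to 4. Plagl1, an imprinted zinc finger factor, read 405, 499, 995 and 763 in tumors 1 to 4 and 1744, 2049, 2946 and 2953 in ganglia 1 to 4 (log2 fold change -1.89, SE 0.35, adjusted p = 1.79e-04), but with probe sets limited to those specific for 1 gene its difference was log2 0.24. Lin28b, which blocks let-7 and is known from human neuroblastoma, was near the floor in both groups and did not pass (log2 0.09, adjusted p = 0.649).

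Signalling genes moved in both directions, as did all genes (27% higher and 25.6% lower). Of 30 receptor tyrosine kinases 8 were higher and 11 lower, and 5 were higher without tumor 1. Alk, a kinase mutated in some human neuroblastomas, read 148, 101, 148 and 104 in tumors 1 to 4 and 55.7, 24.5, 25.9 and 14.1 in ganglia 1 to 4 (log2 fold change 1.67, SE 0.23, adjusted p = 7.86e-06). Kit, the stem cell factor receptor, read 203, 255, 205 and 201 in tumors 1 to 4 and 49.4, 47.4, 59.0 and 77.6 in ganglia 1 to 4 (log2 fold change 1.65, SE 0.20, adjusted p = 2.12e-06). Both were higher in every tumor. Pdgfra, a receptor of mesenchymal cells, and Erbb3, a receptor of Schwann cells, were among those that fell, at log2 -2.75 and -2.43. Of 16 genes of midkine, pleiotrophin and their receptors 5 were higher and 6 lower. Mdk, the heparin-binding growth factor midkine, read 298, 206, 422 and 432 in tumors 1 to 4 and 85.7, 97.7, 54.1 and 43.03 in ganglia 1 to 4 (log2 fold change 2.04, SE 0.23, adjusted p = 8.54e-07). Its relative Ptn, pleiotrophin, read 230.0, 175, 159 and 111 in tumors 1 to 4 and 678, 549, 2297 and 1974 in ganglia 1 to 4 (log2 fold change -2.69, SE 0.38, adjusted p = 8.57e-06). The 2 ligands went in opposite directions without overlap. Their receptor phosphatase Ptprz1, which glia also make, read 43.8, 29.7, 13.04 and 17.7 in tumors 1 to 4 and 302, 228, 583 and 499 in ganglia 1 to 4 (log2 fold change -3.28, SE 0.27, adjusted p = 1.50e-08).

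In the Notch pathway 8 of 25 were higher and 5 lower, against 27% and 25.6% of all genes. Mfng, which modifies Notch receptors, read 80.2, 53.7, 91.4 and 159 in tumors 1 to 4 and 17.4, 17.2, 17.7 and 21.4 in ganglia 1 to 4 (log2 fold change 1.62, SE 0.31, adjusted p = 2.25e-04), and Jag2, a ligand, was at 214 ± 61.7 (SD, n = 4) against 66.4 ± 28.3. Hey2, a repressor downstream of Notch, read 20.9, 14.8, 10.2 and 21.6 in tumors 1 to 4 and 197, 149, 277 and 303 in ganglia 1 to 4 (log2 fold change -2.88, SE 0.39, adjusted p = 5.94e-06). The receptor Notch2 was lower, at log2 -1.58 (adjusted p = 0.0111), but ganglia 1 and 2, at 168.8 and 195, were close to tumor 1, at 168.7, and only ganglia 3 and 4, at 924 and 911, were far above. Against ganglia 1 and 2 alone it did not pass (adjusted p = 0.364). Hes1 did not pass (log2 -0.21, adjusted p = 0.681). Wnt and Hedgehog genes were lower for 13 of 28 and higher for 5. Lef1, a factor of the Wnt response, read 164, 141, 206 and 64.7 in tumors 1 to 4 and 13.4, 14.6, 13.7 and 14.3 in ganglia 1 to 4 (log2 fold change 2.32, SE 0.32, adjusted p = 8.67e-06), and Dkk3, a secreted Dickkopf protein, read 18.99, 29.5, 8.42 and 15.5 in tumors 1 to 4 and 356, 171, 452 and 483 in ganglia 1 to 4 (log2 fold change -3.42, SE 0.39, adjusted p = 9.01e-07). Without all arrays with Acta1 over 100, ganglia 1 and 2 and tumor 3 among them, the number that were lower was 7. This alternative was chosen after seeing the data.

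Axon guidance genes rose for 16 of 36 and fell for 12, both above the shares of all genes. Slit2, a repellent ligand, read 2458, 2283, 2446 and 1538 in tumors 1 to 4 and 163, 87.1, 68.05 and 96.9 in ganglia 1 to 4 (log2 fold change 4.23, SE 0.26, adjusted p = 3.32e-10). Slit3, its relative, read 132, 159, 116 and 187 in tumors 1 to 4 and 43.6, 29.99, 15.8 and 8.99 in ganglia 1 to 4 (log2 fold change 2.08, SE 0.24, adjusted p = 7.28e-07), and their receptor Robo2 read 88.0, 85.9, 49.6 and 32.9 in tumors 1 to 4 and 1.66, 2.30, 0.671 and 10.5 in ganglia 1 to 4 (log2 fold change 1.97, SE 0.23, adjusted p = 1.32e-06). Both ligands and the receptor were higher in every tumor. Sema3c, a secreted semaphorin, read 96.9, 45.5, 23.2 and 32.2 in tumors 1 to 4 and 629.7, 521, 859 and 858 in ganglia 1 to 4 (log2 fold change -3.58, SE 0.35, adjusted p = 1.25e-07), and Nrp1, a semaphorin and VEGF receptor, read 252, 260.4, 346 and 708 in tumors 1 to 4 and 1226, 1583, 2952 and 2617 in ganglia 1 to 4 (log2 fold change -2.41, SE 0.37, adjusted p = 2.25e-05), while the related Nrp2 was higher by log2 1.47 (adjusted p = 3.06e-04). Of 18 Hox genes only 1 was higher and 4 were lower, against 27% and 25.6% of all genes. Of 24 immediate early genes 5 were higher and 7 lower, close to those shares, led by Ier5 (log2 2.43) and Dusp6 (log2 -2.14). With ganglia 1 and 2 alone 4 of these were lower and Dusp6 was not among them (adjusted p = 0.0824). Without the arrays with Acta1 over 100 the number of lower Hox genes was 1. In the hypoxia and stress list 2 of 23 were higher and 6 lower, and 4 were higher without ganglion 2. Bnip3, a mitochondrial target of HIF, read 289, 312, 241 and 206 in tumors 1 to 4 and 1026, 1122, 2846 and 2064 in ganglia 1 to 4 (log2 fold change -2.57, SE 0.44, adjusted p = 8.75e-05), and Vegfa did not pass (log2 0.31, adjusted p = 0.41) but did without ganglion 2 (adjusted p = 0.0249).

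**Figure D2:**
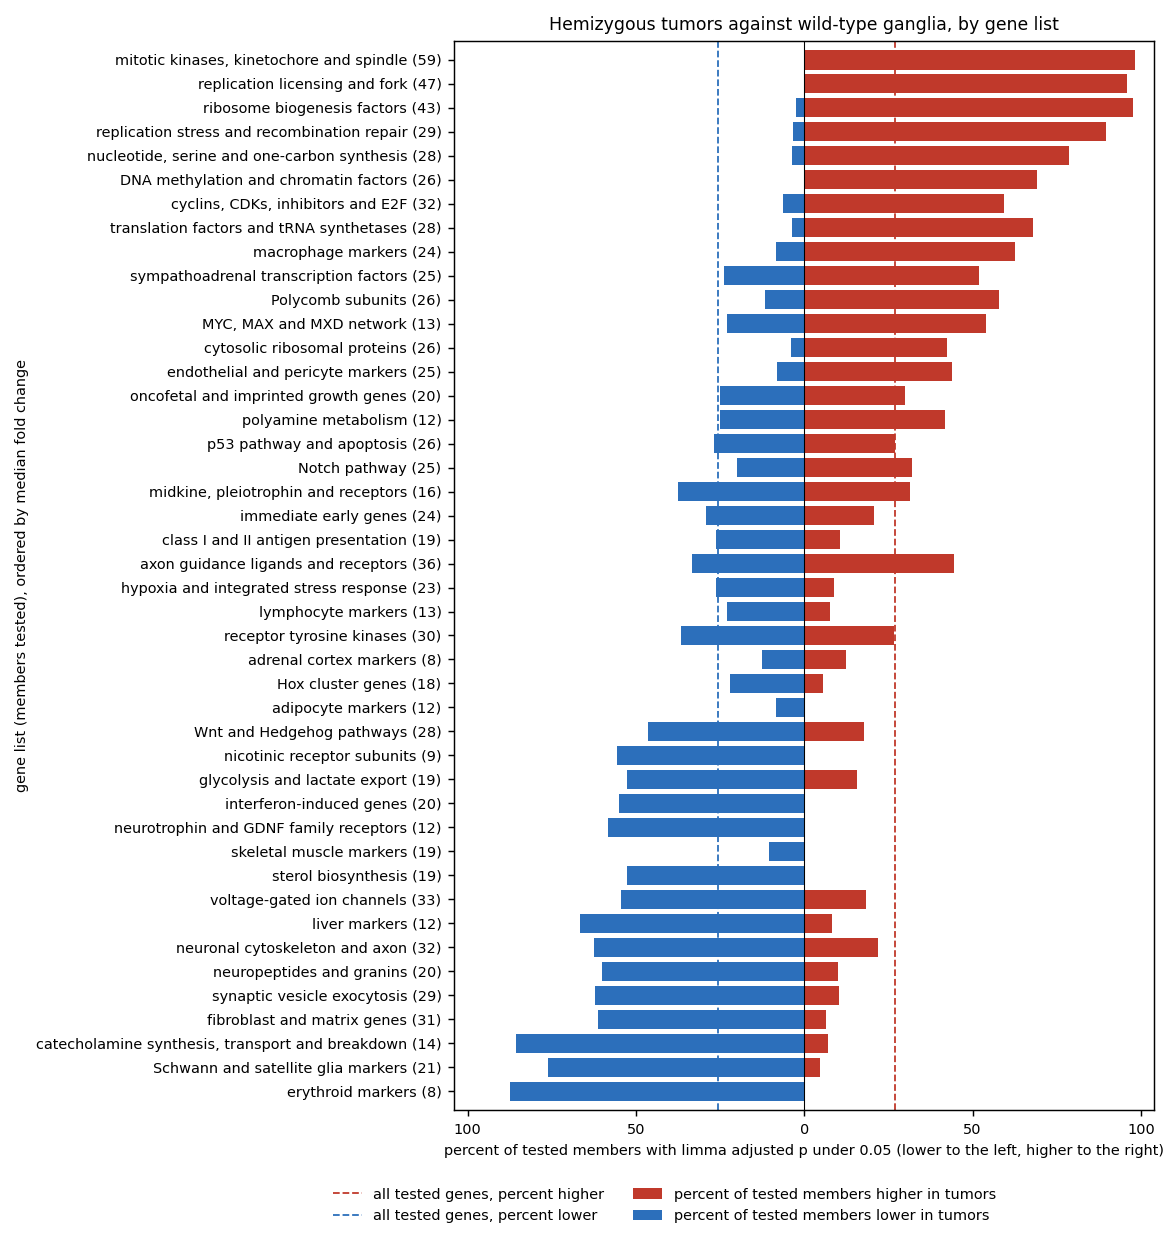
Share of the tested members of each gene list (y axis, number tested in brackets) that passed with limma at an adjusted p under 0.05, lower in tumors to the left in blue and higher to the right in red (x axis, percent). Dashed lines mark the shares of all tested genes, 25.6% lower and 27% higher. The mitotic list (58 of 59) and the ribosome biogenesis list (42 of 43) reach furthest to the right, and catecholamine (12 of 14) and erythroid (7 of 8) lists furthest to the left.

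Markers of the other cells in the tissue differed as well. Of 21 Schwann and satellite glia markers 16 were lower and 1 higher. Sox10, the factor that defines these glia, read 26.8, 21.7, 3.20 and 7.45 in tumors 1 to 4 and 304, 159.9, 200.2 and 220.0 in ganglia 1 to 4 (log2 fold change -2.99, SE 0.30, adjusted p = 1.90e-07). Cdh19, a cadherin of Schwann cells, read 64.7, 42.7, 2.86 and 1.92 in tumors 1 to 4 and 660.0, 396, 874 and 809 in ganglia 1 to 4 (log2 fold change -4.24, SE 0.38, adjusted p = 4.90e-08), and Mal, a myelin protein, read 2.91, 10.3, 0.990 and 29.3 in tumors 1 to 4 and 791, 628, 449.8 and 611 in ganglia 1 to 4 (log2 fold change -4.65, SE 0.25, adjusted p = 1.09e-10). Averaged over the list on the log2 scale, tumors 1 to 4 stood at 6.09, 5.81, 5.28 and 5.62 and ganglia 1 to 4 at 8.08, 7.66, 7.79 and 7.68, without overlap. The apparent exception, Mbp, the myelin basic protein, was higher by log2 1.24 in the probe set used, while 6 other Mbp probe sets passed as lower, at log2 -0.65 to -4.98, so its direction is not settled. Fibroblast and matrix genes were lower for 19 of 31 and higher for 2. Lum, a collagen-binding proteoglycan, read 307, 128, 10.6 and 138 in tumors 1 to 4 and 2555, 3113, 1791 and 1799 in ganglia 1 to 4 (log2 fold change -4.27, SE 0.51, adjusted p = 1.48e-06), and Dcn, its relative, read 846, 580.2, 37.6 and 399 in tumors 1 to 4 and 4507, 4853, 2854 and 3211 in ganglia 1 to 4 (log2 fold change -3.53, SE 0.59, adjusted p = 6.03e-05). Tumor 3 had the least of both. Fbln1, a matrix glycoprotein, rose instead, from 34.3 ± 4.01 (SD, n = 4) to 337 ± 67.8 (SD, n = 4) (log2 2.79), and without the arrays with Acta1 over 100 the number that were higher was 7.

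Vessel and macrophage markers, by contrast, were higher in part. Endothelial and pericyte markers were higher for 11 of 25 and lower for 2. Plvap, a protein of fenestrated endothelium, read 131, 129, 91.9 and 184 in tumors 1 to 4 and 34.99, 43.02, 4.16 and 14.1 in ganglia 1 to 4 (log2 fold change 1.99, SE 0.34, adjusted p = 8.02e-05), and Rgs5, a pericyte gene, read 1339, 1543, 981 and 1636 in tumors 1 to 4 and 564, 911, 221 and 217 in ganglia 1 to 4 (log2 fold change 1.72, SE 0.34, adjusted p = 2.95e-04). Cdh5, the cadherin of all endothelium, did not pass (log2 -0.29, adjusted p = 0.378) but was lower against ganglia 1 and 2 alone (log2 -0.73, adjusted p = 0.0216). With ganglia 1 and 2 alone the number that were higher was 6. Macrophage markers were higher for 15 of 24 and lower for 2. Cd68, a lysosomal protein of macrophages, read 323, 180.1, 193 and 429 in tumors 1 to 4 and 27.6, 18.2, 11.2 and 20.7 in ganglia 1 to 4 (log2 fold change 3.004, SE 0.24, adjusted p = 1.00e-08). Lyz2, the myeloid lysozyme, read 1745, 1207, 1006 and 2178 in tumors 1 to 4 and 244, 297, 179 and 221 in ganglia 1 to 4 (log2 fold change 2.58, SE 0.25, adjusted p = 1.10e-07), and the complement gene C1qa read 231, 189.8, 68.3 and 258 in tumors 1 to 4 and 47.1, 61.0, 2.76 and 3.18 in ganglia 1 to 4 (log2 fold change 2.35, SE 0.40, adjusted p = 7.95e-05). Tumor 4 had the most and tumor 3 the least C1qa. The receptor Csf1r, which all macrophages need, did not pass (log2 -0.07, adjusted p = 0.878), but was higher without the arrays with Acta1 over 100 (log2 0.94, adjusted p = 0.00873). The resident markers Adgre1 and Mrc1 were lower, at log2 -0.84 and -0.70, with overlap. Neither passed without tumor 3 (adjusted p = 0.146 and 0.116) or ganglion 1 or 2, Mrc1 did not without tumor 1 or 2, and with ganglia 3 and 4 alone no member of the list was lower.

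Few markers of adaptive immune cells passed. Of 13 lymphocyte markers 1 was higher and 3 lower. The higher member, Ptprc, which marks all leukocytes, read 1073, 384, 157 and 436 in tumors 1 to 4 and 174, 124, 124 and 166 in ganglia 1 to 4 (log2 fold change 1.41, SE 0.37, adjusted p = 0.00339), with tumor 1 apart from the rest, and its probe sets specific to 1 transcript gave log2 0.46, adjusted p = 0.196. The B cell markers Ms4a1, Cd79a and Cd79b were dim and lower, at log2 -1.504, -0.90 and -0.70, the last of which did not pass without tumor 2 (adjusted p = 0.0545). Antigen presentation genes were higher for 2 of 19 and lower for 5, but higher for 4 without tumor 3, for 5 without ganglion 1, for none with ganglia 1 and 2 alone and for 7 without the arrays with Acta1 over 100. B2m, which pairs with every class I heavy chain, read 1067, 611, 835 and 1261 in tumors 1 to 4 and 1835, 2437, 2033 and 2222 in ganglia 1 to 4 (log2 fold change -1.20, SE 0.21, adjusted p = 1.16e-04), and the class I heavy chain H2-D1 was higher by log2 1.26, which did not pass with ganglia 1 and 2 alone. Interferon-induced genes were lower for 11 of 20 and higher for none, and lower for 7 without those arrays. Rsad2, an antiviral enzyme, read 194, 193, 174 and 129 in tumors 1 to 4 and 651, 1289.7, 1522 and 4314 in ganglia 1 to 4 (log2 fold change -3.06, SE 0.42, adjusted p = 6.82e-06), and Ifit1 was at 15.4 ± 5.69 (SD, n = 4) against 118 ± 62.6.

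Markers of neighbouring tissue followed single arrays. Of 12 liver-type plasma protein genes 8 were lower, 5 without ganglion 1 and 2 with ganglia 3 and 4 alone. Of 19 muscle genes 2 were lower, and 9 were with ganglia 1 and 2 alone. Of 12 adipocyte markers 1 was lower and none higher. With ganglia 1 and 2 alone 8 adipocyte markers were lower, and with ganglia 3 and 4 alone 4 were higher. Erythroid genes were lower for 7 of 8, led by Hbb-b2, a beta globin of red blood cells, at 0.245, 7.41, 30.3 and 87.3 in tumors 1 to 4 and 184, 623, 541 and 1068 in ganglia 1 to 4 (log2 fold change -3.84, SE 0.49, adjusted p = 3.04e-06), although its probe sets specific to 1 transcript gave log2 -0.26, adjusted p = 0.481. Of 8 adrenal cortex markers 1 was higher and 1 lower, and Cyp11b1 and Star did not pass (log2 -0.21 and -0.25). Cyp11b1 was near the floor of the array in both groups, at 1.57 to 10.6 in tumors and 2.14 to 16.6 in ganglia. The part that such tissue plays in other results was not tested beyond the counts without the arrays concerned. Without all arrays with Acta1 over 100, 8042 genes changed instead of 7958. That setting left ganglia 1 and 2, tumor 3, homozygous tumor 2, homozygous ganglion 2 and Mdk knockout tumor 2 out of the fit. Arrays outside the compared groups enter the shared estimate of spread, the choice of probe set for each gene and the choice of genes tested. They do not enter the group means that are compared.

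**Figure D3:**
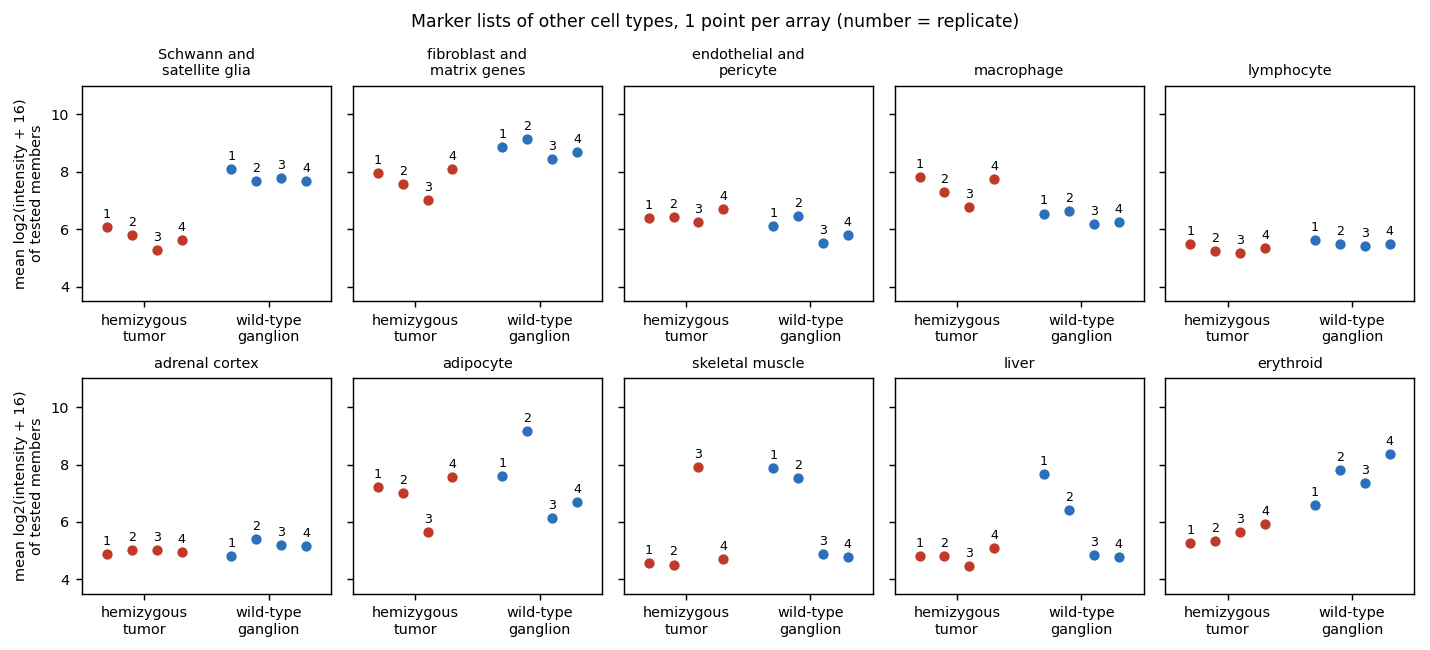
Mean log2(intensity + 16) of the tested members of 10 marker lists (y axis) on each array (points, labelled with the replicate number), red for hemizygous tumors and blue for wild-type ganglia. Glia and fibroblast means are lower in all tumors than in all ganglia, macrophage means are higher in all tumors, and the muscle mean is high in tumor 3 and ganglia 1 and 2 only.

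The 4 hemizygous tumors were not alike in every gene. The 12 tested genes with the largest SD among the tumors, given as a description, were 7 genes of skeletal muscle, 2 sex-linked genes and 3 others. The muscle genes Acta1, Mybpc2, Atp2a1, Myh4, Ckm, Ttn and Tnnc2 were high in tumor 3 only. Xist read 11.99, 11.04, 15.8 and 1527 in tumors 1 to 4 and Eif2s3y read 420.5, 433, 451 and 0.274, so tumor 4 differed from the other tumors in both, in the direction of ganglia 1 and 2. Ucp1, the uncoupling protein of brown fat, read 80.8, 370.1, 5.45 and 765, and Adipoq, a hormone of fat cells, read 239, 152, 4.39 and 266, both lowest in tumor 3. Ganglia 1 to 4, at 1241, 4112, 101 and 194 for Ucp1 and 423, 2901, 53.6 and 190 for Adipoq, also spread widely. Hp, the plasma protein haptoglobin, which myeloid cells and fat also make, read 669, 404, 12.7 and 679.6 in tumors 1 to 4, lowest in tumor 3. Irs4, an insulin receptor substrate, read 7.83, 15.8, 5.59 and 599.8, high in tumor 4 alone.

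In the noradrenergic program the tumors did not fall in 1 order. Tumor 4 had the most Th (1770), Npy (192), Ret (173) and Chga (908), while tumor 2 had the most Slc6a2 (435) and Slc18a2 (313) and tumor 4 almost no Slc6a2 (8.56). Asb4, a ubiquitin ligase adaptor, read 259, 455, 103 and 705 in tumors 1 to 4 and 8.15, 15.4, 15.8 and 1.05 in ganglia 1 to 4 (log2 fold change 3.68, SE 0.43, adjusted p = 1.21e-06), spread widely over the tumors and low in every ganglion. Clec4a3, a lectin of myeloid cells, read 739.8, 117, 49.3 and 259 in tumors 1 to 4 and 16.2, 10.8, 7.13 and 26.0 in ganglia 1 to 4 (log2 fold change 2.77, SE 0.47, adjusted p = 6.66e-05) and was highest in tumor 1, as was Ptprc. Division genes varied to unequal degrees: Cdc20 spanned 2707 to 2959 and Rrm2 2419 to 2734, while Ccnb2 spanned 574 to 1161 and Bub1b 659.7 to 1135, the latter lowest in tumor 3. No test was made between single tumors.

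**Figure D4:**
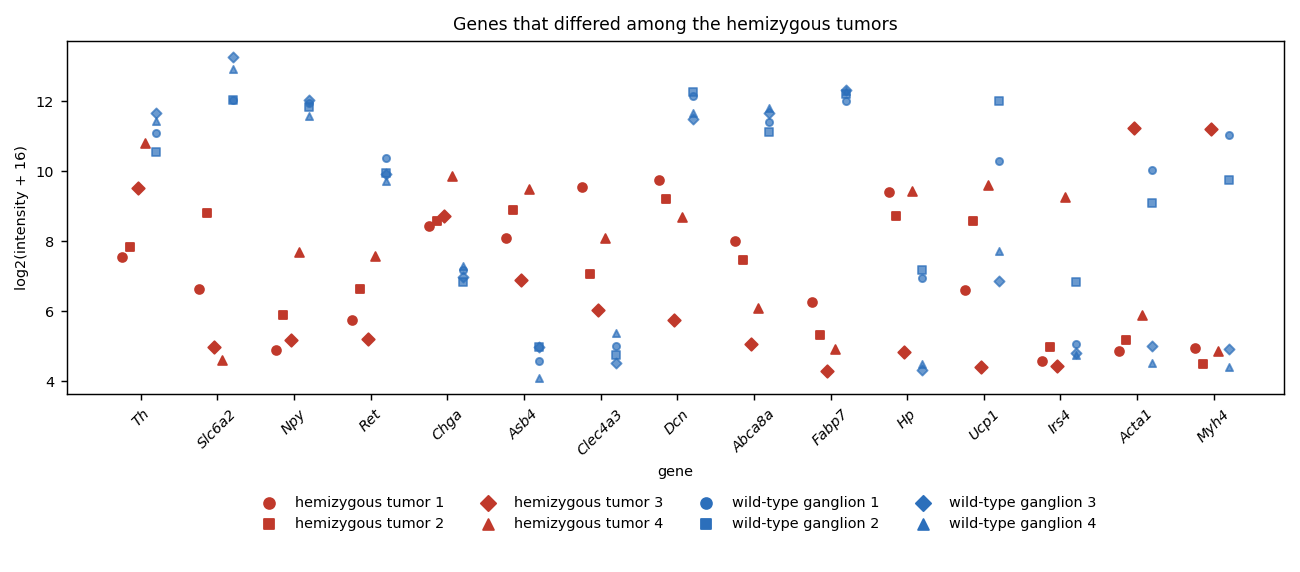
Intensity on the log2(intensity + 16) scale (y axis) of 15 genes (x axis) that differed among hemizygous tumors, red symbols for tumors 1 to 4 and blue symbols for ganglia 1 to 4. Tumor 3 is alone with Acta1 and Myh4 among the tumors, tumor 4 with Irs4, and tumor 4 is highest for Th, Npy, Ret and Chga but lowest for Slc6a2.

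Hemizygous tumors were then set against homozygous tumors, the tissue most like them, which are labelled with the same transgene and the same mixed background. Correlations between the 2 kinds of tumor were 0.934 to 0.977. Of 15132 genes, 939 changed (6.21%), 524 higher in hemizygous tumors (3.46%) and 415 lower (2.74%). This count depends on the arrays used: leaving out 1 tumor at a time gave 446 to 945, with 468 without hemizygous tumor 4 and 446, 498 and 494 without homozygous tumors 1, 2 and 3, and the fit on these 8 arrays alone gave 1966. The comparison shares the hemizygous arrays with the one above, so the values stand side by side here without a test of their overlap. The actin ratio differed little between these groups, 2.20 ± 0.34 against 2.55 ± 0.17 (SD, n = 4 each).

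The genes higher in hemizygous tumors included St18, which stood at 46.9, 76.0, 183 and 246 in homozygous tumors 1 to 4 against the 863, 1086, 1338 and 1266 given above (log2 fold change 3.11, SE 0.44, adjusted p = 4.18e-04). Asb4 stood at 14.3, 6.91, 29.1 and 19.01 in homozygous tumors (log2 fold change 3.33, SE 0.43, adjusted p = 2.00e-04). Nptx2, a secreted pentraxin of synapses, read 175, 172, 179 and 105 in hemizygous and 10.8, 8.99, 7.91 and 4.01 in homozygous tumors (log2 fold change 2.84, SE 0.29, adjusted p = 1.65e-05). The 8 highest and 8 lowest differences were taken from genes whose 2 kinds of tumor do not overlap, so their separation was fixed by that choice. The genes of this paragraph and the leading falls of the next come from that selection. Ak5, an adenylate kinase of neurons, read 359, 371, 814 and 698 against 39.9, 79.2, 81.0 and 89.5 (log2 fold change 2.66, SE 0.50, adjusted p = 0.00379). Calb2, the calcium buffer calretinin, read 225, 156, 165 and 233 against 17.02, 9.42, 23.6 and 26.2 (log2 fold change 2.60, SE 0.22, adjusted p = 2.68e-06). Htr3a, a serotonin-gated channel, read 425, 679, 464 and 555 against 36.7, 63.9, 81.0 and 181 (log2 fold change 2.51, SE 0.33, adjusted p = 2.49e-04), and the wild-type ganglia, at 990.4, 699.6, 567 and 751, did not differ from hemizygous tumors at the threshold (adjusted p = 0.236). Esm1, a proteoglycan of growing vessels, was at 130.1 ± 55.0 (SD, n = 4) against 7.95 ± 4.07, and Clec4a3 at 291 ± 312 (SD, n = 4) against 18.7 ± 4.67.

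The genes lower in hemizygous tumors included Egln3, an oxygen-sensing prolyl hydroxylase expressed in sympathetic cells, at 6.20, 6.999, 3.34 and 19.8 in hemizygous and 1129, 870.5, 453 and 288 in homozygous tumors (log2 fold change -4.66, SE 0.50, adjusted p = 1.94e-05). Against wild-type ganglia, at 178, 88.2, 13.2 and 21.97, it was lower in hemizygous tumors, at log2 -1.497 (adjusted p = 0.0164) and higher in homozygous tumors by log2 3.16 (adjusted p = 3.74e-05). The means of the 2 kinds of tumor for Egln3 thus lie on opposite sides of the mean of the ganglia. Hemizygous tumors and ganglia overlapped, however, as tumor 4 lay above ganglion 3. The hemizygous fall did not pass without ganglion 1 (adjusted p = 0.0709) or with ganglia 3 and 4 alone (adjusted p = 0.38). Pclo, a scaffold of the presynaptic zone, read 94.7, 88.3, 68.3 and 52.2 against 992, 1014, 753 and 529 (log2 fold change -3.17, SE 0.24, adjusted p = 1.47e-06), and the ganglia, at 134, 73.7, 95.8 and 71.4, overlapped the hemizygous tumors. Slc6a2 read 729, 1338, 788 and 831 in homozygous tumors (log2 fold change -3.57, SE 0.62, adjusted p = 0.00241) and Fabp7 415, 345, 299.7 and 295 (log2 fold change -3.26, SE 0.31, adjusted p = 9.41e-06), so both kinds of tumor were below the ganglia and the hemizygous tumors were the lower, although the call for Slc6a2 was lost as a mean over its probe sets (adjusted p = 0.0516). Kcnd2, a potassium channel, read 4.28, 15.8, 5.37 and 3.10 against 219.7, 201, 182 and 113 (log2 fold change -3.07, SE 0.26, adjusted p = 2.68e-06), while homozygous tumors overlapped the ganglia. Fgf13, a regulator of sodium channels, read 266, 153, 129 and 6.995 against 723, 652, 808 and 735, with tumor 4 far under the other hemizygous tumors.

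By list, hemizygous tumors had more vessel and immune transcripts than homozygous tumors. Endothelial and pericyte markers were higher for 15 of 25 and lower for none, with a median log2 difference of 0.88, and macrophage markers were higher for 8 of 24 and lower for none, with a median of 0.64. Antigen presentation genes were higher for 7 of 19, again with none lower. Kdr, the VEGF receptor of endothelium, read 211, 191, 109 and 141 in hemizygous and 46.0, 45.7, 59.1 and 63.4 in homozygous tumors (log2 fold change 1.33, SE 0.25, adjusted p = 0.00357). B2m read 1067, 611, 835 and 1261 against 335, 348, 232 and 319.6 (log2 fold change 1.53, SE 0.21, adjusted p = 4.16e-04). The lowest hemizygous tumor remained above the highest homozygous tumor for Kdr and B2m. Neuronal lists did not all go 1 way: of the cytoskeleton and axon list 1 of 32 was higher and 8 were lower, of the channels 1 of 33 was higher and 4 were lower, and of the synaptic vesicle list 2 of 29 were lower and none higher. Of 14 catecholamine genes 4 were lower and of 9 nicotinic subunits 1, with none higher, while of 20 neuropeptide and granin genes 1 was higher and none lower and none of the 12 neurotrophin and GDNF family receptors passed. Meis2 was at 326 ± 152 (SD, n = 4) against 1459 ± 306 (log2 fold change -2.17, SE 0.34, adjusted p = 9.07e-04), and Dcx at 907 ± 265 against 1889.6 ± 101 (log2 fold change -1.10, SE 0.27, adjusted p = 0.021). Dcx did not pass without hemizygous tumor 4 or homozygous tumor 1, 2 or 3 (adjusted p = 0.0823, 0.0587, 0.0605 and 0.0547). Alk was lower in hemizygous than in homozygous tumors, at 148, 101, 148 and 104 against 304, 289, 225 and 203 (log2 fold change -0.94, SE 0.23, adjusted p = 0.0219), although both exceeded the ganglia, whose highest value was 55.7. Its call was lost without hemizygous tumor 2 or 4 or homozygous tumor 1 or 2 (adjusted p = 0.0523, 0.0744, 0.0809 and 0.0711). Of the 59 mitotic genes 1 passed in this comparison, Espl1 (log2 0.95, adjusted p = 0.00433), and of the 43 ribosome biogenesis genes 8 were higher and none lower, among them Imp4 (log2 1.15, adjusted p = 0.00938; as a mean over its probe sets adjusted p = 0.102).

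**Figure D5:**
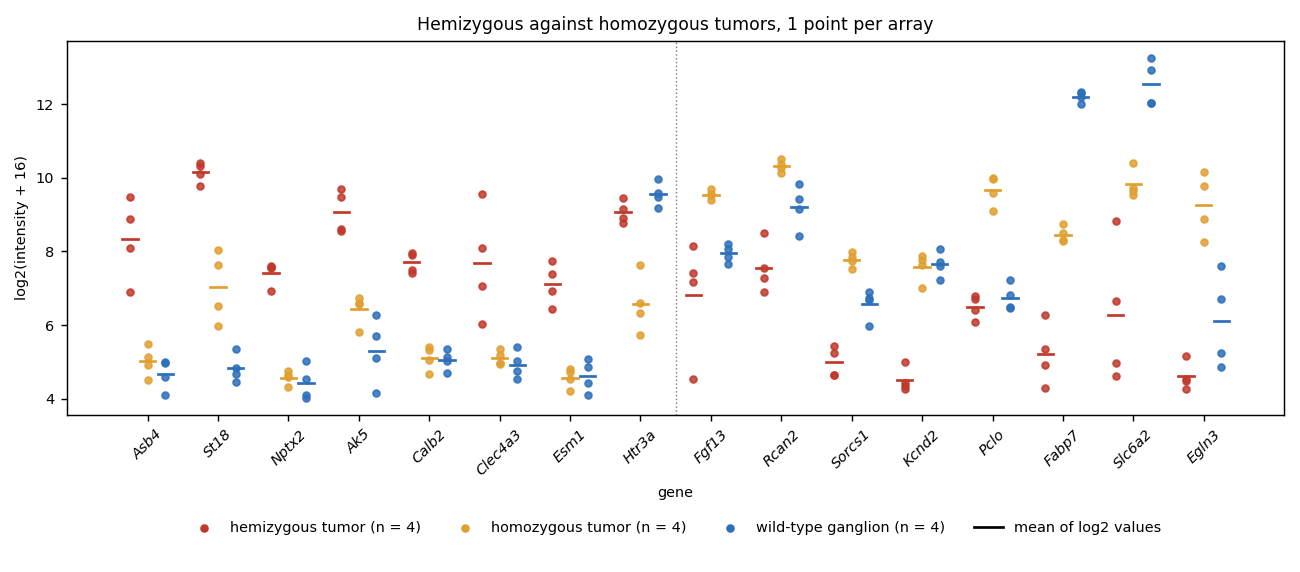
Intensity on the log2(intensity + 16) scale (y axis) of 8 genes highest in hemizygous and 8 highest in homozygous tumors by fold change (x axis), 1 point per array, red for 4 hemizygous tumors, yellow for 4 homozygous tumors, blue for 4 wild-type ganglia, with a bar at the mean of the log2 values. The genes were chosen for no overlap between red and yellow points. For Egln3 the homozygous tumors lie above all ganglia, while the hemizygous tumors overlap the ganglia, with tumor 4 above ganglion 3.

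The 2 tumorsphere cultures, labelled as hemizygous, gave values without the tissue around the cells. Insm1 read 927 and 908, Dlk1 read 1396 and 1256, St18 read 1301 and 1048 and Cdc20 read 2553 and 2739.5 there, each above every ganglion. Lyz2 read 8.42 and 15.01, C1qa read 0.652 and 0.714, Dcn read 10.3 and 5.04 and Plvap read 1.45 and 12.2, so these 4 macrophage, fibroblast and vessel transcripts were near the floor in culture. Other genes of the same lists were not: the matrix gene Fbln1 read 652 and 567, above every tumor, and the pericyte gene Rgs5 48.0 and 56.2, below every tumor. Th read 3097 and 3328 and Ret 444 and 1017, above the tumors, while Slc6a2 read 15.7 and 27.4 and Npy 119 and 59.5. The cultures were not compared with any group by a test here, as growth in culture and loss of other cells cannot be told apart.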

How the data were processed

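The deposited table holds 1 intensity for each of 45101 probe sets on each array, on a linear scale, and per the labels' protocols it comes from biotin-labelled cRNA made from 40 ng of total RNA in 2 cycles of amplification. No summarizing software is named in the sources used here, but the values of every array have the same mean after 2% are trimmed at each end. Of the probe sets, 34945 carried 1 gene symbol in the platform annotation, 932 several and 9160 none, and 34741 symbols were updated through the RefSeq table of GRCm38.p6. From the deposited intensity, log2(intensity + 16) was taken, each of 18193 genes was represented by its brightest probe set on average, and the 15132 genes above the 40th percentile on at least 2 arrays were tested. Array medians spanned 0.334 on the log2 scale, so no further normalization was made. A model with 7 group means over all 20 arrays (13 residual degrees of freedom) was fitted with limma 3.58.1 in R 4.3.3, with Benjamini-Hochberg adjustment over all tested genes in each comparison and a threshold of 0.05, and the steps were checked on simulated data. The number of arrays limits the precision.

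Named genes were the 15 highest and 15 lowest fold changes without overlap, the leading members of 44 gene lists, 9 tested genes fixed by name, the 12 most variable genes among the hemizygous tumors and the 8 highest and 8 lowest between the kinds of tumor, and other list members are given with their test. Of 225 genes that the rule names, 69 were read by probe sets that may match several transcripts. The members and the lists were chosen with earlier results of these data known. Alternatives covered normalization, pseudocount, filter, variance prior, probe set choice, a fold threshold, the arrays used and a replicate block. Promoter sequences are RefSeq's for GRCm38.p6. Other groups of the series (Mdk knockout and cultures) enter the shared estimate of spread, the choice of probe sets and the choice of genes tested. Of these groups only tumorsphere levels are given.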

Additional observations from a re-analysis of the deposited data

Results flagged for a closer look

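Among 218 named genes, 1 array stood far from the other 3 of its group, by Dixon's gap test, in 31 of 436 groups (7.11%), where chance alone sets apart about 1 in 20. Of these, 22 were tumors and 9 ganglia, and tumor 3 accounted for 12. The 12 most variable genes among the tumors are in this count and were chosen for their spread. The 7.11% can thus not be read as an excess over chance.

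In tumor 3, 7 muscle genes were far above the other tumors, as an intensity: Acta1 at 2389.8 (others 13.3 to 44.1), Atp2a1 at 472 (others 3.51 to 9.24), Ckm at 421 (others 2.31 to 5.40), Mybpc2 at 393 (others 0.541 to 3.30), Myh4 at 2349 (others 6.37 to 14.9), Tnnc2 at 997 (others 0.644 to 3.06) and Ttn at 705 (others 9.24 to 14.5). Genes that were far lower in tumor 3 were Adgre1 at 95.1 (others 197 to 222), Bub1b at 659.7 (others 1076 to 1135), Csf1r at 289 (others 808 to 961), Dusp6 at 38.3 (others 78.9 to 83.3) and Hp at 12.7 (others 404 to 679.6). Adgre1 and Csf1r are macrophage markers.

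In tumor 4 the high values were Ier5 at 371 (others 260.5 to 275), Irs4 at 599.8 (others 5.59 to 15.8) and Xist at 1527 (others 11.04 to 15.8), and the low ones were Eif2s3y at 0.274 (others 420.5 to 451), Nptx2 at 105 (others 172 to 179) and Slit2 at 1538 (others 2283 to 2458). In tumor 1 the high values were H2-D1 at 1073 (others 591 to 635) and Ms4a1 at 8.61 (others 5.34 to 5.74). In tumor 2 Kit was high and Mxd3 low, with Kit at 255 (others 201 to 205) and Mxd3 at 70.7 (others 105 to 111).

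Among the ganglia, ganglion 2 was low for Chgb at 1045 (others 1317 to 1369.7), Erbb3 at 233 (others 371 to 404) and Kcnq3 at 374 (others 857 to 934) and high for Irs4 at 99.2 (others 10.9 to 17.4). Ganglion 1 was high for Chrnb4 at 638 (others 400.2 to 427). Ganglion 4 was high for Ezh2 at 162 (others 124 to 127) and Mfng at 21.4 (others 17.2 to 17.7) and low for Ier5 at 25.5 (others 44.9 to 48.7). Ganglion 3 was low for Tspan8 at 1616 (others 2341 to 2506).

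Egln3 had opposite directions in the 2 kinds of tumor, although hemizygous tumors and ganglia overlapped. Against the ganglia the log2 fold change was -1.50 in hemizygous and 3.16 in homozygous tumors, and the difference of -4.66 passed its own test with limma (adjusted p = 1.94e-05).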

How the results depend on the processing

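The number of genes that changed between hemizygous tumors and ganglia stayed within 1.5 times of 7958 under all alternatives but a 2-fold threshold (limma's treat), which left 1840, of which 946 were higher and 894 lower. Leaving out 1 array at a time gave 7311 to 8137 genes (3812 to 4191 higher, 3499 to 3946 lower). Between the kinds of tumor the number moved more. It was 565 (283 higher) with a pseudocount of 1, 1966 (1114 higher, 852 lower) in the fit on the compared arrays alone, 15 (5 higher, 10 lower) with the 2-fold threshold, 220 (108 higher, 112 lower) with replicates 1 and 2 alone and 316 (170 higher, 146 lower) with replicates 3 and 4 alone. Leaving out 1 tumor gave 446 to 945 (216 to 559 higher, 230 to 386 lower). Fewer arrays or a stricter threshold are part of most of these settings, and for the others the cause was not tested.

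Same-numbered arrays did not deviate together, with correlations of -0.27 to -0.03 between hemizygous tumors and ganglia, so the replicate numbers were not taken to pair the samples. With the replicate number as a block 7891 and 821 genes changed, and no named gene followed changed its call in either comparison.

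Of 194 named genes followed against the ganglia, 121 kept direction and side of the threshold under those of 26 alternatives in which they were tested, and 23 changed sign under at least 1, of which 16 had not passed. The log2 fold changes of opposite sign were those of Csf1r (0.029) and Isl1 (0.32) after quantile normalization and of Csf1r (0.23), Ddc (0.085), Isl1 (0.48) and Mbp (-2.62) as a mean over probe sets. With probe sets specific to 1 transcript they were those of Mxd4 (0.14) and Plagl1 (0.24). With replicates 1 and 2 alone they were those of Fen1 (-1.54), Gata2 (0.050), Nefl (0.12), Pnmt (-0.11), Rps9 (-0.13), Syp (0.11) and Vegfa (-0.30). With replicates 3 and 4 alone they were those of Cdh5 (0.43), Csf1r (0.087), Hes1 (0.46), Lin28b (-0.18), Ntrk3 (0.31), Phox2a (1.10), Tubb3 (0.48) and Vamp2 (0.28). With ganglia 1 and 2 alone they were those of Fen1 (-1.57), Isl1 (0.15), Star (0.094), Syp (0.047) and Vegfa (-0.34), and with ganglia 3 and 4 alone those of Cdh5 (0.15), Csf1r (0.55), Hes1 (0.43), Kif14 (-0.0076), Lin28b (-0.14), Ntrk3 (0.37) and Phox2a (0.66). Without the arrays with Acta1 over 100, chosen after seeing the data, they were those of Adgre1 (0.072), Cdh5 (0.12), Csf1r (0.94), Gata2 (0.36), Hes1 (0.53), Kif14 (-0.016), Lin28b (-0.093), Ntrk3 (0.32) and Phox2a (0.45). Leaving out 1 array at a time gave signs in both directions for Csf1r -0.29 to 0.32, Fen1 -0.53 to 0.65, Gata2 -0.32 to 0.32, Hes1 -0.46 to 0.063, Isl1 -0.23 to 0.049, Lin28b -0.0037 to 0.20, Phox2a -0.40 to 0.25, Tubb3 -0.31 to 0.10 and Vegfa -0.0074 to 0.67. Signal near the floor of the array limits what can be said of dim genes such as Lin28b and Ms4a1.

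Against the ganglia, calls were lost, with the adjusted p by limma in brackets, after quantile normalization for Ddc (0.133), Hand2 (0.145), Nefl (0.36) and Nop10 (0.295). They were lost with a pseudocount of 1 for Adgre1 (0.0765) and Mrc1 (0.055). They were lost with a pseudocount of 64 for Egln3 (0.0998), Max (0.0611) and Myc (0.108). They were lost in the fit on the compared arrays alone for Adgre1 (0.103), Max (0.134), Mrc1 (0.105), Mxd4 (0.076), Nefl (0.0904) and Nop10 (0.0753). They were lost as a mean over probe sets for Adra2c (0.272), Cdkn1a (0.307), Hand2 (0.0834), Mxd4 (0.141) and Nop10 (0.133). They were lost without the arrays with Acta1 over 100 for Cd79b (0.0852), Cdkn1a (0.0968), Egln3 (0.524), Gata3 (0.0924), Igf2 (0.0957), Max (0.209), Mrc1 (0.588), Mxd4 (0.766), Myc (0.298), Nefm (0.13), Odc1 (0.279) and Vip (0.139). Between the kinds of tumor, calls were lost with a pseudocount of 1 for Ak5 (0.066), Alk (0.194) and Dcx (0.0544).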
